A study of Aedes albopictus with 6 samples.

Results

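Genes for the microtubule motors kinesin and dynein, for the dynein partner dynactin and for tubulin itself were examined in RNA-seq libraries of *Aedes albopictus* ovaries, the Asian tiger mosquito. Members were taken by description: a gene counted when the deposited table described it with kinesin, dynein, dynactin or tubulin, leaving out descriptions with "tubulin tyrosine" or "polyglutamylase". This gave 187 genes of the 23529 with values, and a further 8 matching entries were blank in all libraries and were not analysed here. A tubulin--tyrosine ligase-like protein 12 gene entered because its name is spelled with dashes.

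The study compared 3 control libraries with 3 libraries from ovaries in which the PIWI-interacting RNA Aalpi18529 was overexpressed, in each case ovaries of *Aedes albopictus* with the genotype label control or Aalpi18529 overexpression. The series' design text says that the small RNA was given as a mimic, a synthetic copy, and that the interest lay in the ovary after a blood meal. Both groups share the tissue and the library kit. For the number of females behind each library, their age, the hours after feeding and the treatment of the controls, nothing is given in the sources used here. No level of Aalpi18529 is in these files, so the overexpression is known from the labels alone. Nothing says that the 3 libraries of a group came from separate batches of animals, so p-values below measure the spread between these libraries, which may be technical.

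In the ovaries of flies and mosquitoes, nurse cells make RNA and protein that move through cytoplasmic bridges into the oocyte. Cytoplasmic dynein, with dynactin, carries cargo toward the minus ends of microtubules, and most kinesins move toward plus ends, placing mRNAs, organelles and yolk precursors within the oocyte. Axonemal dyneins are a separate group of motors that bend the axoneme of sperm tails and motile cilia, and in insects also work in the cilia of mechanosensory neurons.

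Library totals lay between 15719412 and 16465531 estimated counts, and the 187 genes together took 1.17% to 1.21% of them. Levels are given as CPM, that is, counts scaled to a common library total. Transcript lengths were not in the files used here, so CPM values of different genes cannot be placed in order of transcript number. Of the 187 genes, 138 passed edgeR's filter on low counts and were tested, and 49 were too low. In all, 118 genes averaged at least 1 CPM, 22 averaged at least 100 CPM, and 22 averaged under 0.1 CPM. Germ line marker genes summed to 12564 to 12760 CPM in controls and 12624 to 12838 CPM with overexpression, with all 25 of them tested. By edgeR 0 of the 25 were called, where it called 0.0129% of all genes tested, and 1 had an unadjusted p under 0.05, against 4.92% of all genes.

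**Figure D1:**
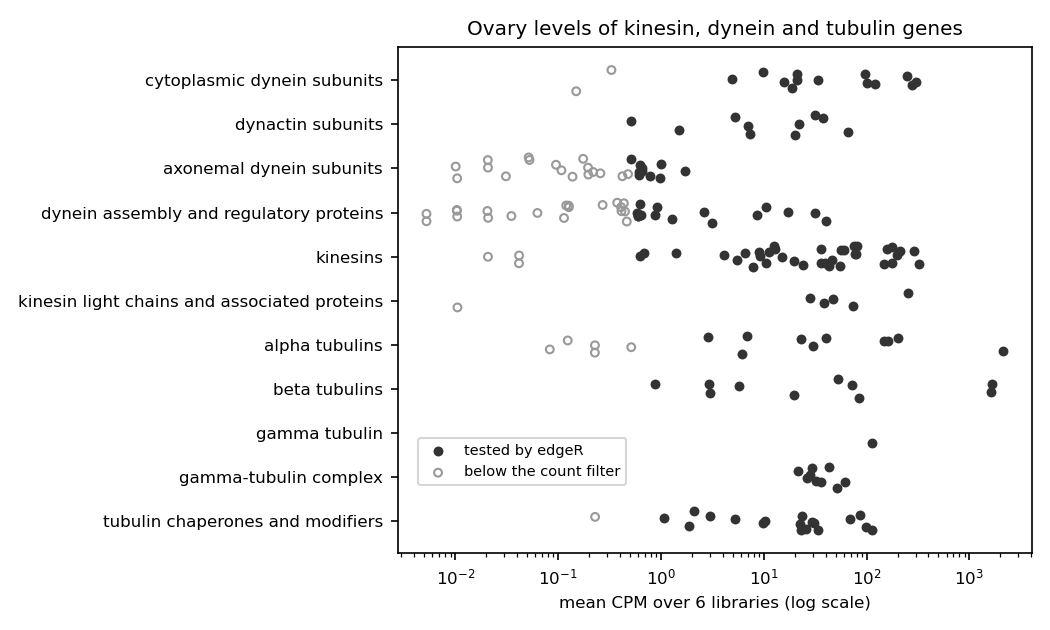
Mean CPM over the 6 libraries (log scale, horizontal) for each of the 187 genes, by class; vertical scatter within a class has no meaning. Filled points were tested by edgeR and open points fell below the count filter. Axonemal dynein subunits do not exceed 1.70 CPM, while cytoplasmic dynein subunits reach 303 CPM and an alpha tubulin reaches 2129.5 CPM.

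Cytoplasmic dynein was read throughout the ovary libraries. By edgeR 0 of its 13 tested subunits were called, where 0.0129% of all genes tested were. The class holds 15 genes, 13 of which averaged at least 1 CPM, and together they summed to 1264 ± 35.7 CPM in the control group and 1278 ± 24.5 CPM in the overexpression group (mean ± SD, n = 3, as for all values written with ± and no SE). The heavy chain, the ATP-driven motor subunit, is LOC109425042 (scaffold NW_021837045.1, positions 80313949 to 80349184, as the deposited table gives them). It had 4678, 5277 and 4810 counts in control libraries 1, 2 and 3, and 4839, 4779 and 4797 with overexpression. The overexpression values fell inside the control range, and both groups averaged 303 CPM. The log2 fold change, overexpression minus control, was 0.00 with a 95% interval from -0.12 to 0.12 (edgeR, adjusted p 0.998).

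The intermediate chain LOC109431484, which joins the heavy chain to dynactin, had 4181, 3942 and 3829 counts in the controls and 3931, 3965 and 4000 with overexpression. Its groups overlapped, at 245 ± 16.3 and 250.1 ± 6.34 CPM. The light intermediate chain, which connects the motor to cargo adaptors, is spread over 3 gene copies whose sum was 153 ± 1.96 and 151 ± 7.34 CPM. Among the light chains, small subunits that bind the intermediate chain, LOC109416410 (dynein light chain 1, cytoplasmic) averaged 273 ± 7.98 and 276 ± 10.9 CPM. A second gene for that light chain (LOC109424015, named after its values were seen) read 118, 115 and 65.2 CPM in the controls and 87.0, 106 and 116 CPM with overexpression, so control library 3 was the lowest of the 6. Both genes have fractional estimates, and how counts were shared between them is not recorded. Their sum averaged 373 ± 22.3 and 379 ± 23.8 CPM, with overlapping groups. The heavy chain of cytoplasmic dynein 2, the motor of return transport inside cilia, is LOC109397027 and averaged 16.6 ± 0.825 and 14.6 ± 1.83 CPM, with overlapping groups (log2 fold change -0.18 ± 0.13 SE, unadjusted edgeR p 0.193). Its 2 light intermediate chain genes were below the count filter.

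Dynactin, the activator that ties dynein to cargo, had 10 genes, all of them tested. They summed to 195 ± 8.05 CPM in controls and 202 ± 8.33 CPM with overexpression, 8 with a positive log2 fold change and 2 with a negative one. Dynactin subunit 1, the arm that holds the microtubule, is LOC109413677 and had 982, 1006 and 1095 counts in the controls and 1101, 1067 and 1058 with overexpression. On the CPM scale all 3 overexpression libraries lay above the controls, at 67.8 ± 0.846 against 63.2 ± 2.72 CPM, and the log2 fold change was 0.10 ± 0.06 (SE, unadjusted edgeR p 0.15). Dynactin subunit 2, the part that couples the arm to the rest of the complex, averaged 30.3 ± 2.03 and 32.7 ± 5.42 CPM for its main copy LOC109421945. Subunit 4, at the pointed end of the complex, averaged 37.1 ± 4.08 and 38.2 ± 3.93 CPM for LOC109405355. Both had overlapping groups.

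Axonemal dynein was near the floor of detection in the ovary. Of 27 axonemal subunit genes, 25 averaged under 1 CPM, 17 were too low to test, and the class summed to 11.2 ± 0.682 CPM in controls and 10.04 ± 0.936 CPM with overexpression. The class holds 18 heavy chain models and 9 intermediate and light chain genes, and no heavy chain exceeded 38 counts in any library. All 9 intermediate and light chain genes averaged under 1 CPM. The highest heavy chain was dynein heavy chain 12, LOC109424679, with 21, 38 and 22 counts in the controls and 31, 26 and 26 with overexpression. Its 83 counts over the overexpression group and 81 over the controls were nearly equal.

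The next levels were those of dynein heavy chain 6, LOC109433418, at 1.17 ± 0.486 and 0.844 ± 0.162 CPM, and of the outer-arm intermediate chain 3 gene LOC115264574, at 1.03 ± 0.258 and 0.941 ± 0.26 CPM. Both had overlapping groups. Summed over all 18 models, axonemal heavy chains reached 6.17 to 8.98 CPM per library. The single cytoplasmic heavy chain was 33.1 to 48.8 times as high in the same libraries, a ratio of CPM that was not corrected for transcript length. Heavy chains of both kinds are among the longest proteins known, but some axonemal models are fragments: 5 of them lie within 35852 bases of scaffold NW_021837378.1 (positions 32501127 to 32536978), the shortest spanning 952 bases, and together they held 48 counts over all 6 libraries.

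**Figure D2:**
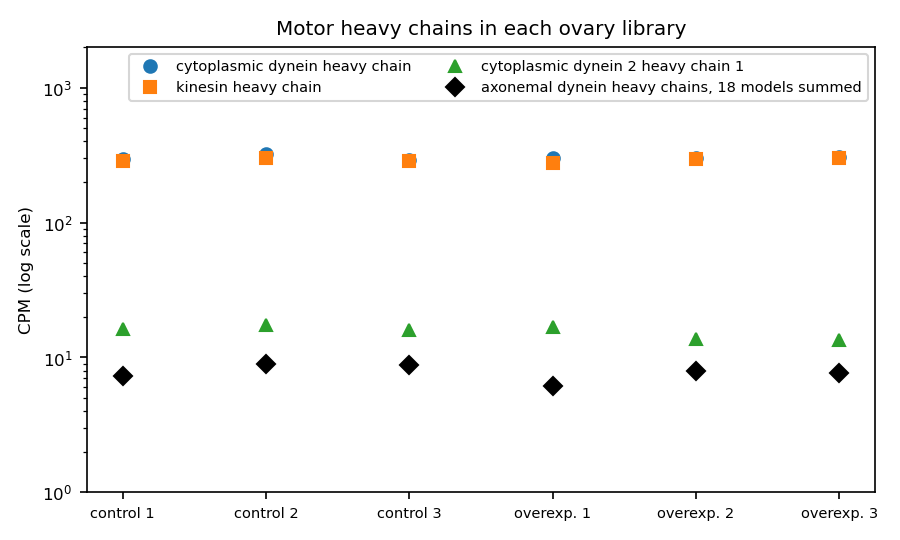
CPM (log scale) of 4 heavy chain measures in each of the 6 libraries: the cytoplasmic dynein heavy chain, the conventional kinesin heavy chain, the cytoplasmic dynein 2 heavy chain, and the sum of 18 axonemal dynein heavy chain models. In every library the axonemal sum (6.17 to 8.98 CPM) lies below the other 3 points.

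Other axoneme genes were mostly low as well. Among 10 tektin and radial spoke genes, structural parts of the axoneme, 6 averaged under 1 CPM, and the 2 tektin-B1-like genes were at 0 in at least 4 of 6 libraries. The highest was tektin-1 (LOC109418945, named after its values were seen), at 7.07 CPM over all libraries. A wider axoneme list of 70 genes was taken by description. It also sought names such as intraflagellar transport, sperm-associated antigen and testis-specific serine/threonine, so its genes need not be parts of the axoneme. This list, with 49 genes under 1 CPM, summed to 299 to 311 CPM in controls and 313 to 318 CPM with overexpression. Its groups did not overlap, while the axonemal dynein sum had a lower mean with overexpression. The part of this list's level in the values of axonemal members was not tested. In whole ovaries, fewer cells of a type and less RNA per cell cannot be told apart.

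Proteins that assemble or regulate axonemal dynein did not all share that low level. Of 36 genes, 28 averaged under 1 CPM, and the 8 others were led by 2 names. Dynein assembly factor 5, LOC109411012, a factor that helps build dynein arms in the cytoplasm, had 573, 716 and 753 counts in the controls and 656, 648 and 585 with overexpression, or 41.8 ± 5.02 and 39.7 ± 1.81 CPM. The 7 genes for other assembly factors summed to 2.35 ± 1.07 and 1.65 ± 0.689 CPM. The 6 genes described as dynein regulatory complex subunit 6 summed to 68.0 ± 6.51 CPM in controls and 73.9 ± 6.52 CPM with overexpression. The regulatory complex is the link between neighbouring microtubule doublets that sets the beat. Outside these names, 27 of 29 assembly and regulatory genes averaged under 1 CPM, and the 4 genes for outer dynein arm protein 1 held 4 counts in all. Of those 4, LOC115263049 and LOC115263052 start at the same base (938066) of the same scaffold.

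Kinesins formed the largest class, and most were present. Of 39 kinesin genes, 34 averaged at least 1 CPM and 8 at least 100 CPM, and they summed to 2530.3 ± 48.6 CPM in controls and 2508 ± 11.8 CPM with overexpression. Of the 36 tested, 12 had a positive and 24 a negative log2 fold change, with a median of -0.01. The conventional kinesin heavy chain, the motor that carries cargo toward plus ends in the oocyte, is LOC109410340 (scaffold NW_021838521.1, positions 3696782 to 3772380). It had 4540, 4917 and 4700 counts in the controls and 4404, 4682 and 4716 with overexpression. The groups overlapped, at 290.3 ± 8.49 and 290.2 ± 14.7 CPM, and the 95% interval of the log2 fold change ran from -0.13 to 0.12 (edgeR, adjusted p 0.999).

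Several of the highest kinesins are known for division rather than transport. Klp10A, which takes microtubules apart at their ends, was highest through LOC109412996, at 329 ± 9.82 and 324 ± 11.0 CPM. Its other gene (LOC109402217, named after its values were seen) averaged 192 ± 6.05 and 201 ± 9.66 CPM. Subito, which organises the meiotic spindle in *Drosophila* oocytes, read 205, 209 and 231 CPM in controls and 209, 228 and 196 CPM with overexpression (LOC109403803), with overlapping groups. KIF18A, a motor that limits spindle microtubule length, has a pair of genes, LOC109408030 and LOC109405145, whose summed level was 187 ± 2.04 and 182 ± 4.30 CPM. The larger of them, LOC109408030, was named after its values were seen and averaged 176 ± 2.15 and 175 ± 2.53 CPM.

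A further 2 kinesins of cell division were named after their values were seen. The chromosome-associated kinesin KIF4A (LOC109398767) averaged 160.0 ± 4.93 and 157 ± 0.681 CPM. KIF23, a motor of the cytokinetic midbody, averaged 74.9 ± 3.80 and 75.5 ± 3.70 CPM for LOC109410372. These groups overlapped. The heterotrimeric kinesin-2 that works in intraflagellar transport (KIF3A, Klp68D and kinesin-associated protein 3, 5 genes) summed to 157 ± 4.50 CPM in controls and 151 ± 6.64 CPM with overexpression.

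Among the kinesin partners, milton, the adaptor that ties mitochondria to kinesin, was highest at 257 ± 16.2 and 251 ± 3.48 CPM (LOC109419762). Kinesin-associated protein 3 (LOC109415199) averaged 47.9 ± 0.673 and 46.2 ± 1.95 CPM. Kinesin light chain, which holds cargo on the conventional motor, read 77.0, 66.9 and 87.9 CPM in controls and 81.7, 63.0 and 64.9 CPM with overexpression for LOC109411157. Its 3 gene copies moved together: their sum was highest in control library 3 (170.4 CPM) and lowest in overexpression library 3 (123 CPM), and the groups overlapped.

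Alpha tubulin counts came mainly from LOC109422743, described as tubulin alpha-1 chain-like (scaffold NW_021838900.1, positions 56561 to 58938), which took 77.4% of the CPM of the 15 alpha tubulin genes. It had 34586, 35206 and 36761 counts in controls and 33396, 32962 and 32344 with overexpression. All 3 overexpression libraries lay below all 3 controls, at 2074 ± 7.39 against 2185 ± 39.4 CPM. The difference was small, a log2 fold change of -0.07 ± 0.03 (SE), and did not pass (unadjusted edgeR p 0.062, adjusted 0.963). The class sum followed this gene, at 2811 ± 40.0 and 2693 ± 21.9 CPM with no overlap. The summed muscle sheath markers were also lower with overexpression, at 2507 to 2611 CPM against 2702 to 2718 CPM in the control group, without overlap, and their part in the result was not tested. Without LOC109422743 the other 14 alpha tubulin genes summed to 626 ± 3.07 and 619 ± 21.5 CPM, and the groups overlapped.

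The tubulin alpha-8 gene LOC109416935 read 211, 203 and 214 CPM in controls and 201, 199 and 190.5 CPM with overexpression, again without overlap. The alpha-8 gene LOC109403788, which has a whole sum with it in every library, went the other way on average, at 159 ± 4.88 and 167 ± 19.1 CPM. The sum of that pair was 369 ± 1.61 and 363 ± 24.4 CPM, with overlapping groups.

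Beta tubulin rested on 2 copies of tubulin beta-1 on scaffold NW_021837931.1, LOC109422254 (positions 38994469 to 39015984) and LOC109621769 (positions 36260831 to 36283423), which held 93.2% of the CPM of 10 beta tubulin genes. Summed over the pair there were 53321, 53937 and 55033 counts in the controls and 53374, 50243 and 53004 with overexpression. The groups overlapped, at 3328 ± 34.7 and 3292 ± 131 CPM, with a log2 fold change of -0.02 and a 95% interval from -0.10 to 0.07. The third gene by level, LOC109414592 (tubulin beta chain-like), averaged 85.4 ± 5.42 and 83.7 ± 14.7 CPM.

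Gamma tubulin, which starts new microtubules, is 1 gene, LOC109428712, with 1745, 1805 and 1837 counts in the controls and 2011, 1714 and 1828 with overexpression. Overexpression library 1 was the highest and library 2 the lowest, so the groups overlapped, at 110.5 ± 0.702 and 117 ± 8.90 CPM. Its ring complex, the template on which a microtubule is nucleated, was present with all 9 genes between 21.4 and 61.7 CPM on average. Components 3 and 2, which form the core of the complex, averaged 60.6 ± 3.83 and 62.8 ± 3.93 CPM (LOC109427521), and 50.3 ± 0.787 and 53.1 ± 2.23 CPM (LOC109417857). The class sum was 330.0 ± 8.10 and 329.6 ± 3.06 CPM.

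Genes that fold or modify tubulin numbered 19 and summed to 583 ± 7.38 and 596 ± 41.8 CPM. The highest were an alpha-tubulin N-acetyltransferase (LOC109411441, 108 ± 8.14 and 117 ± 17.6 CPM), which acetylates tubulin inside microtubules, and 2 folding chaperones, C-like (LOC109404612, 97.3 ± 7.81 and 101 ± 6.80 CPM) and E-like (LOC115262711, 85.2 ± 12.4 and 87.5 ± 6.19 CPM). All 3 had overlapping groups. Tubulin glycylases, enzymes known for modifying axonemal tubulin, were low: 5 genes summed to 8.61 ± 0.0652 and 8.01 ± 1.15 CPM.

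Many of these genes share a description and have fractional estimates, as would arise if reads were divided among similar genes. No sequence was compared, and for the counting program nothing is given in the sources used here. The 187 genes carry 113 distinct descriptions, 125 share a description with another member, and only 59 have whole-number estimates in all libraries (within 0.001). Sets of members were therefore sought whose estimates are fractional singly but whole when added, within 0.02 in every library. There were 45 such sets holding 100 of the 128 fractional genes (36 pairs, 8 sets of 3 and 1 set of 4). Every one of the 45 carried a single description apart from the ending "-like", 30 lay on 1 scaffold and 15 spanned more than 1. Copies here means genes of such a set. How an estimate was shared within a set is not recorded, so a single copy's level is uncertain. The sum is given for only some sets, and several genes above are given as single copies. These include the named genes of dynactin subunits 2 and 4, KIF23, tubulin beta chain-like and gamma-tubulin complex component 2. The named N-acetyltransferase and the C-like and E-like chaperones are also single copies.

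Klp61F, the motor that pushes spindle poles apart, was picked out after its values were seen, as the set whose sum varied least relative to its copies. Its copy LOC109409585 read 25.8, 20.5 and 24.8 CPM in controls and 30.3, 28.8 and 14.5 CPM with overexpression. Its partner LOC109622562 read 144, 157 and 146 CPM, then 137, 139.5 and 161 CPM. Where one copy was low the other was high, and the sum averaged 173 ± 3.95 and 170.3 ± 4.59 CPM. Its spread was 0.345 of that expected if the copies varied independently, the lowest ratio among the 45 sets. The ratio was 0.363 for the dynein light intermediate chain and 0.701 for tubulin beta-1, and was below 1 in 31 of 45 sets, with a median of 0.894. It was highest, at 1.55, for kinesin light chain, whose copies moved together. In 20 sets the sum varied less than its most variable copy. Among members averaging at least 10 CPM, the median coefficient of variation was 5.89% for 22 whole genes and 8.93% for 65 fractional ones. The coefficient was taken over both groups together, and whole and fractional genes were not matched for level. The part of shared reads in this difference was not tested.

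**Figure D3:**
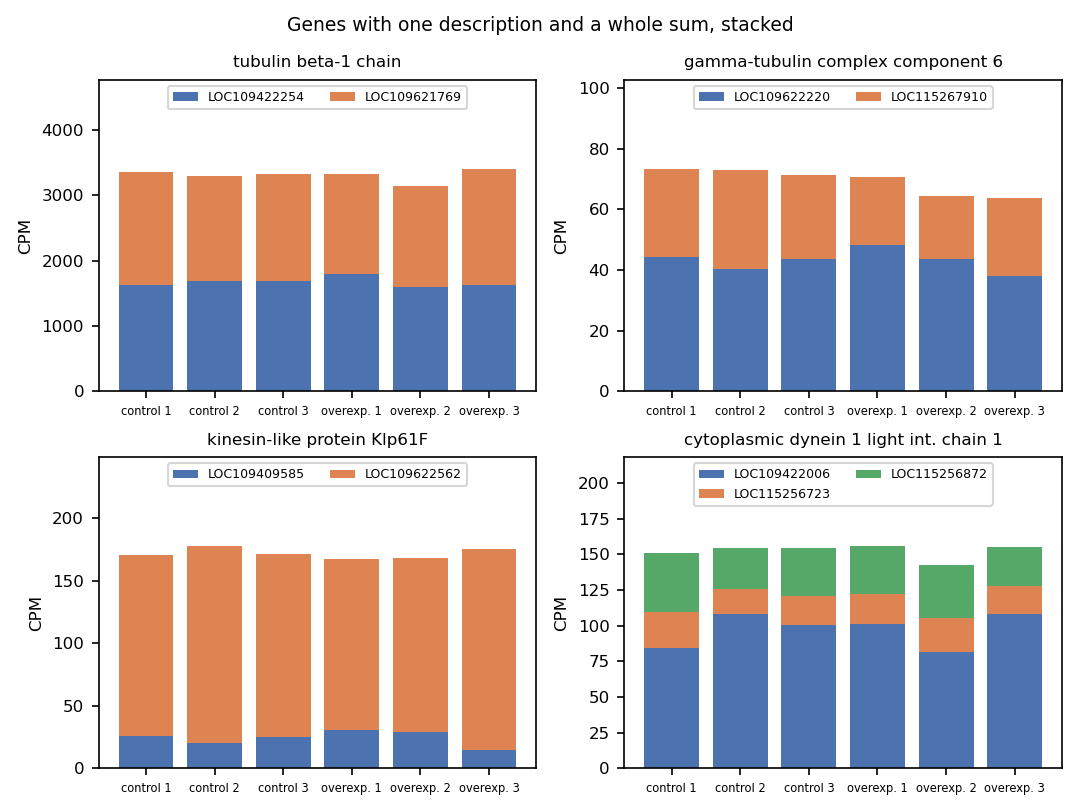
CPM of genes that share a description and a whole sum, stacked to their sum in each library, for tubulin beta-1, gamma-tubulin complex component 6, Klp61F and cytoplasmic dynein 1 light intermediate chain 1; each colour is 1 gene copy. The boundary between copies differs between libraries in each panel. For Klp61F the total averages 173 CPM in controls and 170.3 CPM with overexpression. The sets shown were picked, and their ratios of spread (0.345 to 0.701) are all below the median of 0.894 over 45 sets. Sets whose copies moved together, such as kinesin light chain (1.55), are not shown.

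The groups were then compared gene by gene. No transport gene passed an adjusted p of 0.05: edgeR's quasi-likelihood test called 0 of 138, where it called 2 of all 15540 genes tested (0.0129%). DESeq2 called 0 of the 184 to which it gave an adjusted p (0.0652% over all genes), and limma-voom called 0 (0.0129% over all genes). At an unadjusted p under 0.05 there were 4 members (2.9%), 2 higher and 2 lower, against 4.92% of all genes tested (2.42% higher and 2.5% lower). In 12 members (8.7%) the groups did not overlap, 3 with overexpression above and 9 below, against 10.4% of all genes (5.25% above and 5.12% below). The count at an unadjusted p under 0.05 varied with the libraries used: without overexpression library 1 it was 9 (6.47%, against 4.47% of all genes in that fit), without library 2 of that group 8 (5.71% against 5.25%), without library 3 of it 2 (1.44% against 4.93%), and without control library 2 it was 7 (5.07% against 4.98%). Without control library 1 it stayed at 4 (2.88% against 5.09%), and without control library 3 it was 5 (3.68% against 4.82%). Of the 138, 63 had a positive and 75 a negative log2 fold change, and the median was -0.01 for members and 0.00 for all genes. Summed over all 187 genes, levels reached 11988 ± 8.94 CPM in the control group and 11817 ± 156 CPM in the other. These sums did not overlap, and their log2 ratio was -0.02. The alpha-1-like tubulin gene held 17.9% of all member CPM and the tubulin beta-1 pair 27.8%. Class sums went both ways. Means were lower with overexpression for alpha and beta tubulins, kinesins and their partners, axonemal dynein and the gamma-tubulin complex. They were higher for the other classes, cytoplasmic dynein and dynactin among them. The median size of the log2 fold change was 0.099 for members and 0.098 for all genes tested. It was at least 0.5 in 10.9% of members and 6.18% of all genes, and at least 1 in 2.9% and 1.01%. Among genes averaging at least 10 CPM, 1.15% of members and 0.706% of all genes reached 0.5.

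The precision of the data sets what could have been seen. Of 87 members tested that averaged at least 10 CPM, 85 had a 95% interval lying within 2-fold in either direction and 72 within 1.5-fold. Over all 138 tested members the numbers were 110 and 79, since the low genes, the tested axonemal subunits among them, had wide intervals.

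**Figure D4:**
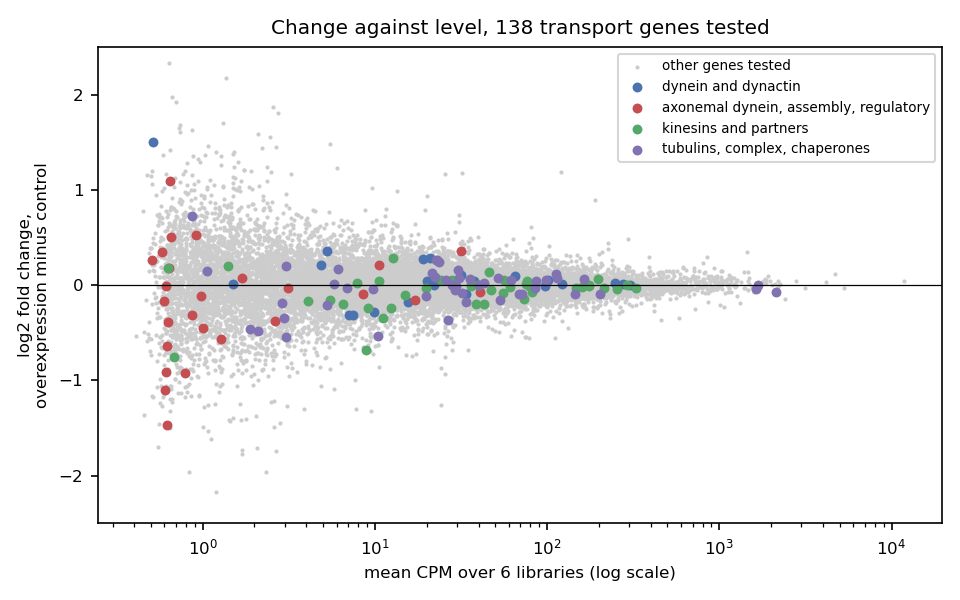
Log2 fold change (overexpression minus control) against mean CPM (log scale) for 138 transport genes, coloured by class, over all other genes tested (grey). The spread narrows with level, and members lie within the grey cloud, with a median log2 fold change of -0.01.

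The smallest unadjusted p belonged to a copy of gamma-tubulin complex component 6, a subunit of the ring complex. LOC115267910 (scaffold NW_021838465.1, positions 82908379 to 82931927) had estimated counts of 462.39, 535.45 and 454.75 in controls and 359.80, 336.42 and 401.19 with overexpression. The groups did not overlap, at 29.8 ± 2.63 and 23.1 ± 2.42 CPM, and the log2 fold change was -0.37 ± 0.11 (SE, unadjusted edgeR p 0.0111, adjusted 0.963). Its partner copy LOC109622220, on the same scaffold, had 701.61, 658.55 and 721.25 estimated counts, then 775.20, 693.58 and 592.81. The pair summed to whole counts of 1164, 1194 and 1176 in controls and 1135, 1030 and 994 with overexpression. The sums still did not overlap, but the log2 fold change was -0.13 ± 0.07 (SE, unadjusted edgeR p 0.0916).

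The other low p on the lower side was a dynein regulatory complex protein 1 gene, LOC115255853, at 9.63, 13.18 and 22.59 estimated counts in controls and 8.68, 2.68 and 4.02 with overexpression. The groups did not overlap, and the log2 fold change was -1.46 ± 0.52 (SE, unadjusted edgeR p 0.021). It is 1 of 4 copies, and their whole sums were 43, 55 and 49 in controls and 31, 47 and 38 with overexpression. These sums overlapped, with a log2 fold change of -0.30 ± 0.24 (SE, unadjusted edgeR p 0.242).

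The 2 members on the higher side had whole counts. Dynein regulatory complex subunit 6, LOC109418902 (scaffold NW_021838465.1, positions 54663690 to 54666035), had 452, 382 and 519 counts in controls and 637, 468 and 585 with overexpression. Overexpression library 2 fell within the control range. The averages were 27.7 ± 4.11 and 35.5 ± 5.46 CPM, with a log2 fold change of 0.36 ± 0.15 (SE, unadjusted edgeR p 0.0407, adjusted 0.963). The neighbouring gene of the same description (LOC109418895, named after its values were seen) averaged 9.74 ± 2.06 and 11.3 ± 2.08 CPM with overlapping groups, and LOC109425769, on another scaffold, averaged 18.0 ± 0.971 and 16.2 ± 1.05 CPM. LOC109425769 belongs to a set of 3 copies whose sum was lower with overexpression, at 29.9 ± 0.892 and 26.8 ± 1.48 CPM without overlap. The log2 fold change of that sum was -0.15 ± 0.09 (SE, unadjusted edgeR p 0.111).

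Tubulin-specific chaperone cofactor E-like protein, LOC109424545 (scaffold NW_021838554.1, positions 6340928 to 6381196), had 309, 362 and 389 counts in controls and 413, 407 and 401 with overexpression. In vertebrates a protein of this name destabilises tubulin. Its groups did not overlap, at 21.7 ± 2.07 and 25.7 ± 0.137 CPM, and the log2 fold change was 0.24 ± 0.10 (SE, unadjusted edgeR p 0.0446, adjusted 0.963).

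The remaining members with the lowest p had unadjusted edgeR p-values between 0.0589 and 0.0987. Higher on average were dynein heavy chain 1, LOC109424543 (5, 11 and 4 counts, then 7, 17 and 18), dynactin subunit 6-like, LOC109414000 (log2 fold change 0.35 ± 0.18 SE) and KIF3A, LOC109403310 (0.28 ± 0.15 SE). Lower on average, besides the alpha-1-like tubulin, were KIF18A copy LOC109405145 (-0.68 ± 0.31 SE) and dynein heavy chain 8, LOC109409127 (10, 17 and 12 counts, then 3, 9 and 8). These genes were chosen for their small p, so a value nearer to 0 for the sum of copies follows in part from the choice. With copies summed, the log2 fold change was 0.07 for dynactin subunit 6, -0.03 for KIF18A and -0.09 for KIF3A, which turned its direction. After summing, 89 sets and single genes were tested, 0 were called by edgeR and 2 had an unadjusted p under 0.05 (LOC109418902 and LOC109424545), against 4.93% of all genes tested in that form. Of the 44 sets tested, 0 had an unadjusted p under 0.05, and the largest log2 fold change was 0.88 in size, for the ciliary dynein beta chain at 1.17 ± 0.407 and 0.631 ± 0.411 CPM.

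**Figure D5:**
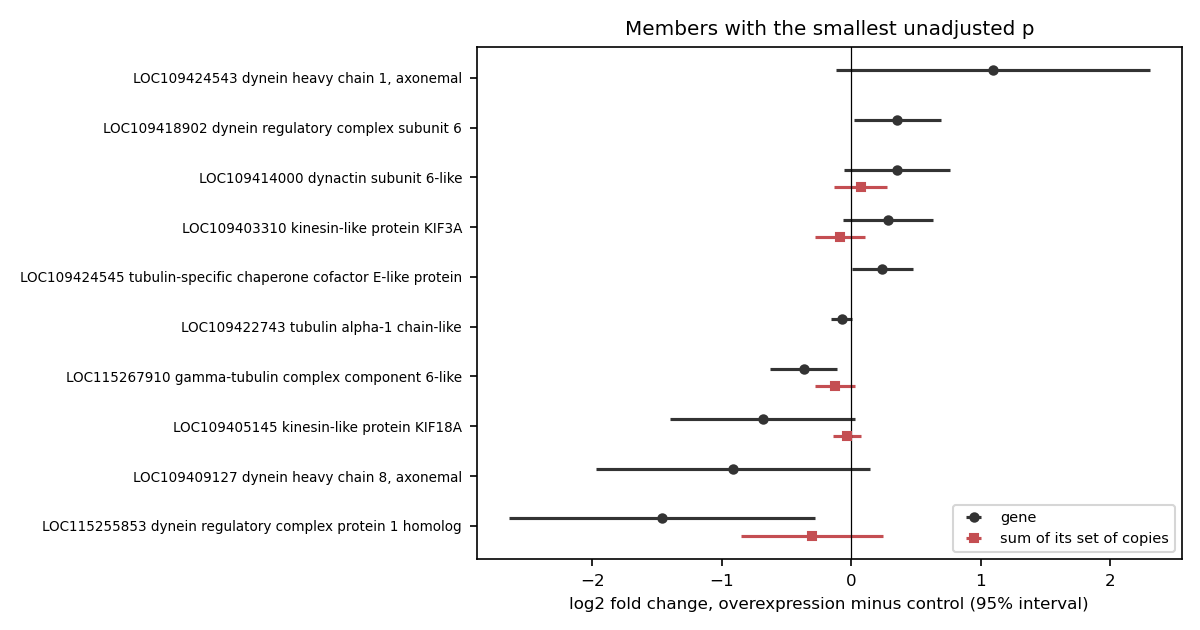
Log2 fold change with its 95% interval for the 5 higher and 5 lower members with the smallest unadjusted p (black circles) and, where a gene belongs to a set of copies, for the sum of the set (red squares). All 5 sums shown lie nearer to 0 than the gene or on its other side, from -0.30 to 0.07; since the genes were chosen for their small p, this supports nothing.

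Among axonemal genes, dynein heavy chain 10 has a set of 2 copies, picked out after its values were seen. LOC109411052 had 5.84, 2.84 and 4.76 estimated counts in controls and 0 in all 3 overexpression libraries. Together with its partner LOC109398557 the counts were 13, 15 and 12 in controls and 5, 12 and 19 with overexpression. The sums overlapped, with a log2 fold change of -0.11 ± 0.47 (SE, unadjusted edgeR p 0.819).

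Other genes of microtubule transport and organisation were listed by name. Among 47 such genes (dynein adaptors and regulators, severing enzymes, plus-end and minus-end proteins, augmin and mRNA localisation factors), 38 were tested, 12 with a positive and 26 with a negative log2 fold change and a median of -0.04. By edgeR, DESeq2 and limma-voom 0 were called, where these tests called 0.0129%, 0.0652% and 0.0129% of all genes. At an unadjusted edgeR p under 0.05 there were 4 (10.5%), against 4.92% of all genes tested and 2.9% of members. A katanin A-like 1 gene, a microtubule-severing ATPase (LOC109424103), averaged 50.5 ± 3.94 and 61.5 ± 2.48 CPM without overlap (log2 fold change 0.28 ± 0.08 SE, unadjusted edgeR p 0.00632). Its estimates are fractional. With the other gene of that description the sum averaged 52.1 ± 3.76 and 63.0 ± 2.60 CPM, also without overlap, and was not whole in every library. Augmin, which branches new microtubules from existing ones, supplied the other 3.

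Its dgt6 subunit has a pair of copies that went opposite ways. LOC109422685 averaged 57.4 ± 1.91 and 48.1 ± 4.68 CPM (log2 fold change -0.26 ± 0.09 SE, unadjusted edgeR p 0.0167), and LOC109401132 had a log2 fold change of 0.20 ± 0.07 (SE, unadjusted edgeR p 0.0235). Their sum was whole in every library and averaged 117 ± 1.35 and 117 ± 3.25 CPM. A dgt3-like copy, LOC115267671, had a log2 fold change of -0.45 ± 0.19 (SE, unadjusted edgeR p 0.0464), while the 3 dgt3 genes summed to 68.9 ± 1.42 and 66.6 ± 2.84 CPM with overlapping groups.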

How the data were processed

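RNA-seq libraries of 3 control and 3 overexpression ovary samples were grouped by their titles and genotype labels. Estimated counts were deposited by the authors as 1 table, per the file headers, with 2 decimals and no scaling between libraries. HISAT and Bowtie2 are named in the submitters' processing notes; for their roles, the counting program, the genome build and strand, nothing is given in the sources used here. Of 34479 rows, 10950 were blank and left out, and 0 count columns belonged to no sample. Library totals were 15719412 to 16465531.

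Estimated counts were rounded and tested with edgeR 4.0.16 in R 4.3.3 (TMM scaling, filterByExpr, quasi-likelihood F test, Benjamini-Hochberg adjustment over 15540 genes, limit 0.05, no covariate). Standard errors are the absolute log2 fold change over the root of the F statistic. DESeq2 1.42.0 and limma 3.58.1 (voom) were alternatives, with other scalings and filters, each library left out, a replicate block, counts summed over one description and whole estimates only. Sets of members with whole sums (up to 4 genes, called copies; no sequence was compared) were added after seeing the data. The procedure was tested on simulated data.

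The members, classes and lists were chosen with earlier results of these data known. Genes named are the 3 highest of each class by CPM, the heavy chains, the 5 higher and 5 lower members with the smallest unadjusted p, any called member, and up to 2 on each side of the other transport genes; every other gene named, partner copies of these included, was named after its values were seen. Marker lists of follicle epithelium, muscle sheath, fat body, neuron, germ line and axoneme genes were summed per library. The RefSeq gene table at hand is of another assembly, so none of its coordinates is used.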

Additional observations from a re-analysis of the deposited data

How the results depend on the processing

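Of 659 values recomputed under the alternatives, 636 kept their direction and side of the limit or stayed within their tolerance, 0 gained or lost a call, 13 moved and 10 reversed. Transport genes called, and other transport genes called, were 0 in every setting run. Genes called over all genes were 2, 15 with the DESeq2 Wald test, 1 with counts summed over one description, 0 with whole estimates only, and 0 to 2 when 1 library was left out. No pairing by replicate number was seen: deviations of same-numbered libraries correlated at -0.01, 0.03 and 0.01. Such correlations cannot exclude a shared batch, and the labels say nothing of one. With the replicate block 0 genes were called over all genes and 0 transport genes were called. In that fit 5 transport genes (3.62%) had an unadjusted edgeR p under 0.05, against 4.59% of all genes. Members at an unadjusted p under 0.05 were 4, 2 with sets of copies summed, and 2 to 9 when 1 library was left out: 7 when control library 2 was removed, 9, 8 and 2 when overexpression library 1, 2 or 3 was; the cause was not tested. Over all genes in those 4 fits the shares were 4.98%, 4.47%, 5.25% and 4.93%, against 5.07%, 6.47%, 5.71% and 1.44% of members, and with whole estimates only 5.78% against 8.82%. Among fold changes, the reversals fell on 2 heavy chains near 0 and on 1 copy. Differences of class sums (overexpression minus control, CPM, no test) also turned sign within the spread between libraries: cytoplasmic dynein from 14.4 to -6.19 without control library 3, kinesins from -22.7 to 2.87 without control library 2, beta tubulins from -50.8 to 12.8 without overexpression library 2, assembly and regulatory proteins from 1.85 to -1.43 and the gamma-tubulin complex from -0.381 to 2.20 without control library 1. The cytoplasmic dynein heavy chain had log2 fold changes of -0.0266 to 0.0490 over these removals, below 0 in 3 of them, and -0.0011 with whole estimates only. The kinesin heavy chain had 0.0025 with no filter, 0.0001 with counts summed over one description, and -0.0321 to 0.0388 over the removals, above 0 in 2 of them. KIF3A copy LOC109403310 had -0.0869 and -0.0871 when its copies were summed by description or by set. Depth limits the low members: the 49 untested genes, most axonemal subunits among them, hold too few counts for a comparison.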

Other observations

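Genes listed as markers of the other cell types that an ovary preparation can hold were summed per library as a description. The lists were matched on gene descriptions, so a listed gene need not be particular to its cell type. The neuron list sought synaptotagmin, elav, synaptobrevin, syntaxin-1A, nervous system and complexin. Follicle epithelium genes (54) summed to 7564 to 7697 CPM in controls and 7417 to 8009 CPM with overexpression. Muscle sheath genes (68) summed to 2702 to 2718 CPM in controls and 2507 to 2611 CPM with overexpression, without overlap, and 9 of 54 tested had an unadjusted edgeR p under 0.05, against 4.92% of all genes tested. Fat body genes (19, of which 13 under 1 CPM) summed to 129 to 160.1 CPM and 156 to 214 CPM, and neuron genes (31) to 2487 to 2749 CPM and 2616 to 2742 CPM. In the other lists the counts at an unadjusted p under 0.05 were 4 of 38 tested follicle epithelium genes, 2 of 28 axoneme genes, 1 of 5 fat body genes, 3 of 20 neuron genes and 1 of 25 germ line genes. edgeR called 0 genes in each list, and 0.0129% of all genes tested. The part of these levels in the values of transport genes was not tested.

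A further 2 genes of the other transport list are given as values. Maternal protein exuperantia, which brings mRNA to the front of the *Drosophila* oocyte, read 3052, 3203 and 3241 CPM in controls and 3041, 2995 and 3291 CPM with overexpression (LOC109399245, named after its values were seen). Lissencephaly-1, a dynein regulator (LOC109405798, likewise), read 213, 230 and 211 CPM, then 218, 213 and 226 CPM. Both had overlapping groups, with log2 fold changes of -0.03 ± 0.05 and 0.00 ± 0.06 (SE, edgeR).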
